A study of Mus musculus with 66 samples.

Results

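The cerebellum of calorie-restricted mice was compared between about 6 and about 16 months of age. The comparison used 17 of the 66 cerebellar arrays of the series: 9 from mice of 6 months and 8 from mice of 16 months, 1 mouse to an array. Members were chosen by diet and age as the labels give them, and the arrays numbered 21 and 22 were left out. On those arrays, both from restricted mice of 16 months, the spots had failed at position 8 of each run of 22 consecutive probe numbers.

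All mice were C57BL/6, and no transgene or mutation was involved. Restricted mice had regular feed at 100% until week 13. They were then stepped down over 2 intervals of 1 week, at 90% and at 75% of a fortified feed, and were held at 60% for the rest of life. The young groups were 4 males of 177 to 194 days and 5 females of 174 to 194 days. The older groups were 4 males of 474 to 495 days and 4 females of 485 to 499 days. Mice were numbered within a sex and age by their array order, the omitted arrays included. Ad libitum mice of both ages (20 arrays) and restricted mice of 24 months (7 of 8 arrays) were used only for contrast. The ad libitum males were of 174 to 194 and 476 to 498 days, and the females of 169 to 194 and 476 to 499 days. Restricted males of the 24-month group were all of 673 days, and its females in use were of 703 to 736 days. The omitted array of 24 months, number 26, had a low correlation with the others.

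The cerebellum is built around Purkinje cells, its output neurons, which receive parallel fibres from a very large population of small granule neurons and inhibition from molecular layer interneurons. Bergmann glia, a kind of astrocyte, wrap Purkinje dendrites, and myelinating oligodendrocytes fill the white matter. Caloric restriction without malnutrition extends the life of many rodent strains, and it is known to act on insulin and nutrient signalling, mitochondrial metabolism and the handling of damaged protein. The period studied spans early adulthood to middle age, before the frailty of old rodents.

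RNA was labelled with 33P per the labels, while the methods name another isotope of phosphorus, and hybridised to a cDNA membrane, here the second of a pair that together carried the mouse clone set. Values were Z scores: each probe's distance from the mean of all 8448 probes of its array, in standard deviations of that array. A Z score of 0 is therefore the array's mean, not absence of RNA. Differences are in Z units, and no fold change was computed. The membrane averages over all cells of the tissue, so fewer cells of a type and less RNA per cell cannot be told apart. The 4111 probes whose mean Z over the 4 groups was above 0 were tested. The filter follows that of the study.

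Gene names came from the platform annotation, which gave 1 symbol to 2201 of these probes, several to 108 and none to 1802. The probe named Xist, the transcript made from the inactive X chromosome of females, ran from -1.19 to -0.67 in the 8 males and from -1.31 to -0.78 in the 9 females, so the sexes overlapped and the name was not borne out there. The doubt was not confined to Xist. Over 842 pairs of probes that share a symbol, the mean Z scores had a Pearson correlation of only 0.116. Of 97 ribosomal protein probes 47.42% lay above the array mean, beside 45.15% of all 4875 probes with a single symbol. The cause was not tested. Each gene name below stands for the probe as annotated, and readings by gene, marker or pathway carry this limit.

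Tissue markers were read with the same limit. Among Purkinje cell genes, Car8, which binds the IP3 receptor, lay above the mean, with 0.857 ± 0.134 (SD, n = 9) in the young group and 0.897 ± 0.190 (SD, n = 8) in the older. Calb1, the calcium buffer calbindin, was above the mean on 3 probes (0.375, 0.117 and 0.0555 at 6 months) and below it on another (-0.641). The astroglial gap junction gene Gja1 stood at 1.07 ± 0.0779 (SD, n = 9) and 1.16 ± 0.138 (SD, n = 8). No oligodendrocyte gene passed the filter: Gpr37, Gatm and Bcas1 averaged -1.33, -0.426 and -0.070 at 6 months. Among genes of meninges, Slc6a13, a GABA transporter, stood at 2.18 ± 0.108 (SD, n = 9). The lists were split, with 5 of 8 astroglial and 10 of 14 meningeal genes having a probe above the mean. At 6 months the astroglial genes Clu and Cst3 averaged -1.16 and -1.11, and the meningeal genes Col5a1 and Col6a2 averaged -2.24 and -0.833.

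The array numbers in the labels fall into 5 successive sets, and 3 of the 17 arrays belonged to set 5. Those 3 arrays, female 5 of 6 months and male 5 and female 5 of 16 months, had median correlations of 0.951, 0.936 and 0.924 with the others, while the other 14 lay between 0.966 and 0.974. Set 5 held no restricted male of 6 months, and set 2 held no usable array of 16 months. The methods speak of balanced batches, but no source used here says whether an array set is such a batch.

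No probe passed the test between 6 and 16 months. limma with Benjamini-Hochberg adjustment over the 4111 probes called 0 (0%), and the smallest adjusted p was 0.999. At an unadjusted p under 0.05 there were 30 probes, 0.73% of those tested, of which 20 were higher at 16 months (0.486%) and 10 lower (0.243%). Chance alone gives 5% where no probe differs, and the cause of the lower share was not tested. The median size of a difference was 0.0413, and all differences lay between -0.222 and 0.271. The median half-width of the 95% interval was 0.161. The interval lay wholly within ±0.25 for 3068 probes (74.6%) and within ±0.5 for 4097 (99.7%), so differences above 0.5 were outside the interval for nearly every probe tested. The array set was not part of this fit. With the set as a block limma gave 288 probes an unadjusted p under 0.05 and called 0, with a smallest adjusted p of 0.686. Those 288 were above a 5% share of the 4111 probes, unlike the 30 of the fit without the set. The cause was not tested.

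The study's criteria, as applied here, ask for a Z-ratio of 1.5 or more, a mean Z above 0 and an unadjusted p under 0.05. The p was that of limma. The study also put the remaining genes through an analysis of variance, which was not run here. The Z-ratio is the difference divided by the standard deviation of all differences, here 0.0830. The criteria as applied here were met by 24 probes (0.584%), 16 higher and 8 lower at 16 months. The 10 higher probes of smallest p and the 3 lower ones that had a single proper gene symbol are described here, and none of them passed the adjustment (limma, adjusted p = 0.999 for each).

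Celf3, a neuronal splicing regulator of the CELF family, had the largest difference of these. At 6 months its Z scores were -0.06, 0.09, -0.08 and 0.11 in the males and 0.17, -0.02, 0.06, 0.35 and -0.22 in the females. At 16 months they were 0.24, 0.5, 0.34 and 0.09 in the males and 0.07, 0.27, 0.36 and 0.16 in the females. The ages overlapped, and 2 of the 8 older mice lay above every young mouse. The difference was 0.21 ± 0.08 (SE; limma, unadjusted p = 0.0133), with 0.28 in males and 0.15 in females.

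Dync1h1, the heavy chain of the motor cytoplasmic dynein, had medians of 0.160 and 0.305, with -0.03 to 0.25 in young and 0.06 to 0.44 in older mice. As many as 5 older mice passed the highest young mouse, the most among these 10 probes. Lap3, a leucine aminopeptidase, had medians of 0.670 (0.44 to 0.78) and 0.755 (0.6 to 0.95). Its difference was 0.28 in males and -0.01 in females.

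Cln3, the lysosomal membrane protein lost in juvenile neuronal ceroid lipofuscinosis, spanned -0.14 to 0.17 (median 0.0100) in young and 0.01 to 0.39 (median 0.175) in older mice. Eif2ak4 encodes GCN2, the kinase that senses uncharged tRNA when amino acids are short. It ran from 1.03 to 1.28 (median 1.13) and from 1.13 to 1.55 (median 1.23), and 2 older mice lay above the young range. Ddx54, a DEAD-box RNA helicase, had medians of 0.350 and 0.455, and its highest young mouse stood at 0.44 beside 0.75 for the highest older one.

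Wdr35, a component of the transport machinery of cilia, was higher on 1 probe (medians 0.390 and 0.495) and differed by 0.03 on its other probe, with an SE larger than that. Esyt2, a tether between endoplasmic reticulum and plasma membrane, had medians of 0.860 and 1.04. The values 1.3 and 1.31 of male 5 and female 5 of 16 months were its highest. Rint1, which acts in vesicle tethering, had medians of 0.680 and 0.815, and Asz1, a germ cell gene of piRNA biogenesis, 0.060 and 0.155. The ages overlapped on each of these probes.

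Among the lower probes, Ifitm2 belongs to the interferon-induced membrane proteins that hinder virus entry. At 6 months it stood at 1.68, 1.61, 1.61 and 1.65 in males and at 1.67, 1.61, 1.52, 1.45 and 1.81 in females. At 16 months it stood at 1.51, 1.33, 1.5 and 1.65 in males and at 1.61, 1.51, 1.51 and 1.16 in females. The ages overlapped, with 2 older mice below every young one. The difference was -0.15 ± 0.07 (SE; limma, unadjusted p = 0.0414), of like size in males (-0.14) and females (-0.16).

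Zfp952, a zinc finger gene, spanned 0.13 to 0.29 (median 0.260) in young and -0.07 to 0.26 (median 0.110) in older mice, and 5 of the 8 older mice lay below the young range. Its difference was -0.13 ± 0.05 (SE; limma, unadjusted p = 0.0159). Shuffling the mice between the ages within each sex, over all 8820 arrangements, gave an exact two-sided permutation p of 0.00227, the smallest of the 13 probes. That p was not adjusted for the number of probes. Tmem223, a mitochondrial membrane protein, had medians of 0.650 and 0.570. It was lowest, at 0.16, in male 5 of 16 months.

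**Figure D1:**
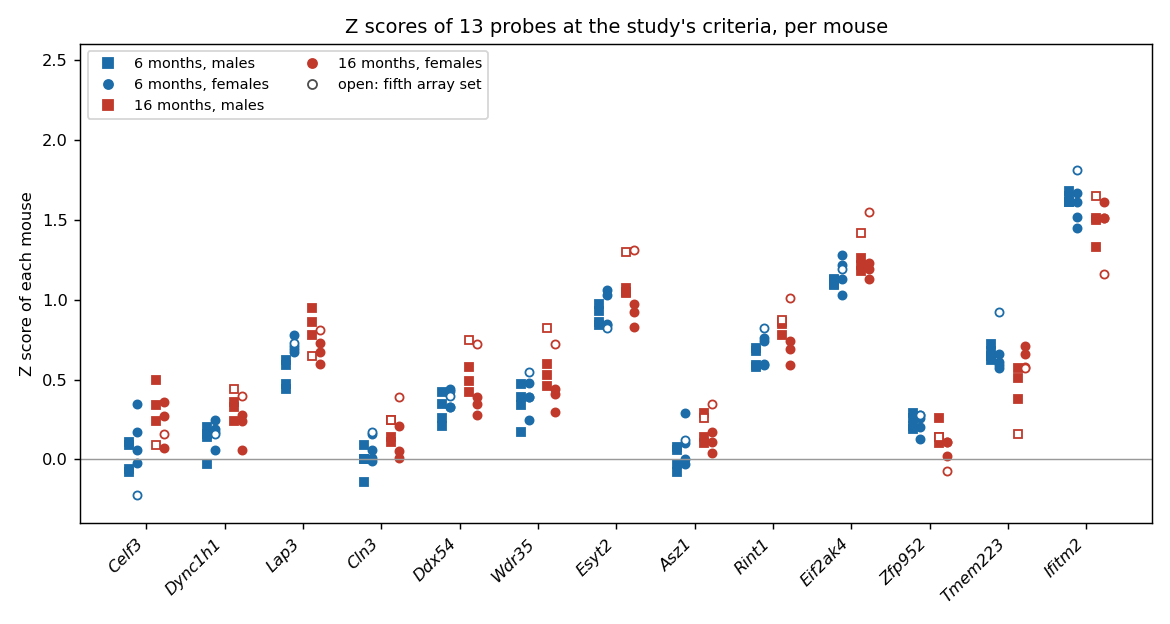
Z score (vertical axis, in standard deviations of the array) of each restricted mouse for 13 probes that met the study's criteria, 6 months in blue and 16 months in red, squares for males and circles for females, open symbols for array set 5. The ages overlap on every probe, and the open red symbols of Esyt2 lie at 1.3 and 1.31.

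The age difference moved with position along the probe numbers. Spot coordinates were not used, so place on the membrane itself was not read. Probe numbers were taken in 384 runs of 22, the unit in which arrays 21 and 22 had failed. Run alone accounted for 63.3% of the variance of the 4111 differences. In runs 1 to 12 the median difference was 0.0906 and 140 of 142 probes were higher at 16 months, while in runs 13 to 24 it was -0.0235 and 38 of 111 were higher. This course came back with a period of 24 runs over the early part of the probe numbers. In runs 361 to 384 the median was -0.0793, and 14 of 268 probes were higher.

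All 103 tested probes of runs 1 to 9 were higher at 16 months, with a median of 0.0973. These runs held 2.50% of the probes tested and 9 of the 24 that met the study's criteria. Celf3, Dync1h1, Lap3, Cln3, Ddx54, Wdr35 and Asz1 were among them. The mean Z over the 103 probes was 0.904 in male 5 and 0.913 in female 5 of 16 months, and 0.525 to 0.739 in the 14 arrays of the other sets. Female 5 of 6 months stood at 0.691. Among ad libitum mice the same runs 1 to 12 differed by 0.0130 between the ages, with 80 of 142 higher, and run accounted for 24.3% of the variance.

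**Figure D2:**
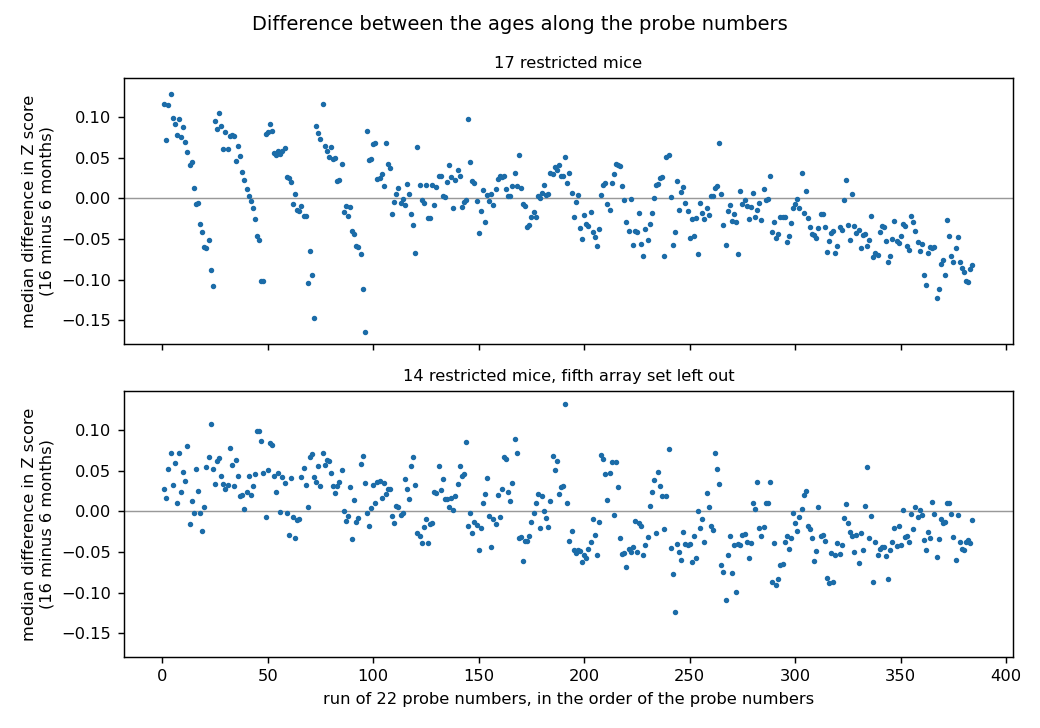
Median difference in Z score between 16 and 6 months (vertical axis) over the tested probes of each run of 22 probe numbers (horizontal axis), with all 17 restricted mice above and without array set 5 below. In the upper panel the medians fall from above 0 to below 0 within each of the first 4 stretches of 24 runs. Without set 5 runs 1 to 12 have a median of 0.0471.

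Setting each array's mean in every run to the mean over the arrays changed the order of the probes. With that correction 0 probes were called and 9 met an unadjusted p under 0.05. Of the 24 probes at the study's criteria 3 remained: Ifitm2, Zfp952 and one without a symbol. Ifitm2 kept a difference of -0.15 (limma, unadjusted p = 0.0223) and Zfp952 one of -0.11 (unadjusted p = 0.0496). Without correction, Ifitm2 had an unadjusted p under 0.05 in 7 of the 17 fits that each left out 1 mouse. Celf3 went to 0.11 (unadjusted p = 0.178) and Lap3 to -0.01, while Wdr35 and Asz1 went to 0.02 and 0.01. The correction removes any age difference that a whole run shares. It therefore cannot tell a technical shift of a run from genes whose probe numbers happen to lie together. It also leaves in place any effect of position within a run. Ifitm2 and Zfp952 both lie at position 8, where the spots had failed on the arrays left out of the comparison. Dync1h1 and the Wdr35 probe described above lie there too. So do probes 9556 and 10040, which have no single symbol, and no others of the 24. Of the 4111 tested probes 246 are at this position.

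Without array set 5, an alternative chosen after the data were seen, 14 mice were left. Again 0 probes were called (limma, smallest adjusted p = 0.947), and 98 had an unadjusted p under 0.05. Of the 24 probes 5 still met the study's criteria. Celf3 differed by 0.22 and Lap3 by 0.14, and Zfp952 by -0.10 (limma, unadjusted p = 0.0414). Ifitm2 differed by -0.105 (unadjusted p = 0.0540), while Esyt2 went to 0.06 and Tmem223 to -0.07. Run then accounted for 38.4% of the variance, and 110 of the 142 probes of runs 1 to 12 were higher. The part of probe number position in the differences was not tested.

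**Figure D3:**
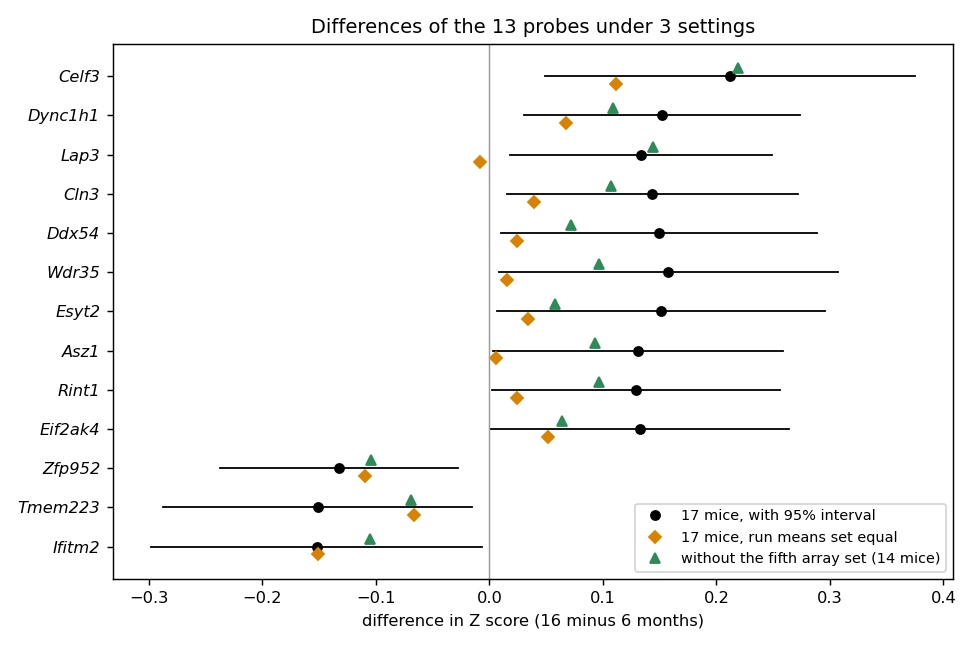
Difference in Z score between 16 and 6 months (horizontal axis) for the 13 probes with all 17 mice (circles, bars for the 95% interval), with run means set equal (diamonds) and without array set 5 (triangles). The diamonds of Lap3, Asz1 and Wdr35 lie near 0, and that of Ifitm2 stays at -0.15.

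Array sets 1, 3 and 4 each held 1 mouse of every sex and age, 12 mice in all. With the set as a block, limma gave an unadjusted p under 0.05 for 843 probes and called 0, with a smallest adjusted p of 0.0951. After run correction these numbers were 987, 0 and 0.136. Both 843 and 987 were above the 5% share of the 4111 probes that chance alone gives where no probe differs. The cause was not tested. In 846 of the 4111 probes the older mice were higher in each of these 3 sets, and in 688 they were lower in each. Some probes do so by chance alone, and these 2 counts were not tested. Of the 24 probes that met the study's criteria with 17 mice, 2 met them in the 12 with the set as a block, and 4 with run correction added. These fits were also chosen after the data were seen.

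Wrn, Hsp90aa1 and Vim were genes of interest to the study, and on each the ages overlapped. None had an unadjusted p under 0.05 in limma. Wrn encodes the helicase lost in Werner syndrome. It spanned 0 to 0.29 (median 0.210) in young and 0.11 to 0.28 (median 0.160) in older mice, with a difference of 0.02 ± 0.05 (SE). Hsp90aa1, the inducible form of HSP90, differed by 0.01 ± 0.07 (SE). Vim, the filament protein vimentin of Bergmann and reactive glia, ran from 0.91 to 1.21 and from 0.92 to 1.23, with a difference of -0.05 ± 0.06 (SE). The 95% intervals of Wrn and Vim, from -0.10 to 0.13 and from -0.17 to 0.07, bound the change that these mice allow. Jag1, a Notch ligand, Uchl1, a neuronal ubiquitin hydrolase, and Nos3, the endothelial nitric oxide synthase, lay below the array mean (-0.171, -0.819 and -2.14 at 6 months) and were outside the filter. In the fit without it they differed by -0.05 ± 0.08, -0.03 ± 0.08 and 0.09 ± 0.15 (SE; limma, unadjusted p = 0.571, 0.712 and 0.531). No probe with the single symbol Gfap, Hif1a, Elovl6, Nlk, Usp46, Ctsz or Tgfbr3 was analysed here.

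Among cell type markers above the array mean, 0 members of the 9 lists with tested genes had an unadjusted p under 0.05. The 3 Purkinje genes were each higher at 16 months (median difference 0.0403): Car8 by 0.04, Calb1 by 0.04 averaged over its 3 tested probes, and Dner, a Notch ligand of Purkinje dendrites, by 0.14 ± 0.15 (SE). The brightest Calb1 probe differed by -0.03 ± 0.06 (SE). Both granule neuron genes were lower. Kcnd2, an A-type potassium channel, differed by -0.10 ± 0.07 (SE), from 0.38 to 0.77 in the young and from 0.18 to 0.59 in the older mice. Of the interneuron genes, Sorcs3, a neuronal sorting receptor, differed by 0.16 ± 0.13 (SE). Without array set 5 Sorcs3 differed by -0.05 and Kcnd2 by -0.01, and the granule neuron list had a median of 0.01375.

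Glial, immune and vascular markers above the mean lay in both directions. Over 5 astroglial genes the median difference was -0.0120, with Gja1 at 0.10 ± 0.06 (SE) and Sparc, a matrix glycoprotein, at 0.01 ± 0.11 (SE). Of the 3 microglial genes above the mean 2 were higher. Fcer1g, an Fc receptor chain, differed by 0.14 ± 0.13 (SE) and the complement gene C1qb by 0.09 ± 0.08 (SE), while C1qc, its partner in the C1q complex, differed by -0.05 ± 0.06 (SE). The list median of 0.0870 went to -0.00581 with run means set equal. Pdgfrb, the pericyte receptor, differed by -0.10 ± 0.06 (SE) and Mcam, an endothelial adhesion molecule, by 0.01 ± 0.09 (SE).

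Markers below the array mean were read in a fit without the filter. That fit, over all 8448 probes, called 0 (limma, smallest adjusted p = 0.999), and 162 probes (1.92%) had an unadjusted p under 0.05, 120 of them higher at 16 months (1.42%). Of the 4337 probes at or below the mean 49.4% were higher. Over both levels 5 of 6 microglial genes were higher (median 0.154), as were 5 of 8 astroglial, 3 of 4 vascular and all 4 Purkinje genes. All 3 interneuron and all 3 oligodendrocyte genes were higher too. Of 14 meningeal genes 9 were lower and 5 higher (median -0.028), and both granule neuron genes were lower. Without array set 5, 1 of the 3 interneuron and 1 of the 2 granule neuron genes were higher. The astroglial, vascular, Purkinje, oligodendrocyte and meningeal lists then had 5, 2, 3, 2 and 4 genes higher.

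Fcgr3, a low-affinity Fc receptor of microglia and macrophages, had the largest of these differences. It ran from -1.79 to -1.18 (median -1.58) in young and from -1.59 to -0.59 (median -1.31) in older mice. The ages overlapped, and the difference was 0.32 ± 0.12 (SE; limma, unadjusted p = 0.0137, adjusted p = 0.999). It was 0.28 with run means set equal and 0.35 without array set 5. Cd74, the invariant chain of antigen presentation, differed by 0.17 ± 0.10 (SE) and C1qa, the remaining chain of C1q, by 0.17 ± 0.09 (SE). With run means set equal 4 of the 6 microglial genes were higher (median 0.103), and 5 without set 5 (median 0.108).

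Cst3, the protease inhibitor cystatin C, is abundant in astroglia. It ran from -1.39 to -0.67 (median -1.14) and from -1.05 to -0.58 (median -0.845), so the ages overlapped. Its difference was 0.28 ± 0.09 (SE; limma, unadjusted p = 0.00680, adjusted p = 0.999), and 0.20 with run means set equal and 0.19 without set 5. Acta2, the smooth muscle actin of vessel walls, differed by 0.16 ± 0.08 (SE). Cst3 and Fcgr3 were the marker probes of any list with an unadjusted p under 0.05 in this fit. They were singled out after their values were seen.

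Attached tissue and blood can come with a dissected cerebellum. Of 10 meningeal genes 5 were higher and 5 lower (median -0.0107). Of 3 choroid plexus and ependymal genes 1 was higher (median -0.0320). The 3 blood genes were all higher (median 0.0713), among them the globin Hba-a2 by 0.07 ± 0.09 (SE) and Bpgm, the enzyme that makes 2,3-bisphosphoglycerate in red cells, by 0.03 ± 0.07 (SE). With probes below the mean included, all 6 blood genes were higher (median 0.0572), and the probes of the globin Hba-a1 differed by -0.05 to 0.19. On that reading 5 of 14 meningeal genes were higher and 9 lower, and 2 of 3 choroid plexus and ependymal genes were higher. Without array set 5, 4 of the 6 blood genes were higher. Ttr, the defining choroid plexus message, had no tested probe with a single symbol.

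Pathways known to respond to diet or age were read beside all genes. Over the 2025 genes with a tested probe, 979 were higher, 1044 lower and the median difference was -0.00225. With run means set equal 879 were higher and 1146 lower (median -0.00665). Nutrient and insulin signalling had 7 of 12 genes higher (median 0.0150). They included Rptor, the scaffold of mTORC1, at 0.03, Prkaa1, the catalytic subunit of AMPK, at 0.04 and Igf1 at -0.05. Oxidative phosphorylation had 11 of 19 higher (median 0.00950), from Ndufb10 of complex I at -0.09 to Ndufv2 of the same complex at 0.08. The citrate cycle and fatty acid oxidation had 5 of 7 higher, but Cpt2, which carries fatty acids into mitochondria, was at -0.12. No member of these lists had an unadjusted p under 0.05. With run means set equal, 5 of 12 nutrient, 8 of 19 oxidative phosphorylation and 4 of 7 citrate list genes were higher.

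Genes of protein upkeep differed in direction from list to list. Of 18 chaperone genes 6 were higher and 12 lower (median -0.0234), with the chaperonin subunit Cct6a at -0.14 ± 0.12 (SE) and the ER chaperone Hspa5 at -0.03 ± 0.05 (SE). Of 8 proteasome genes 5 were higher, and of 40 ubiquitin enzymes 17. The lysosomal list split evenly, 8 and 8, and Cln3 was its 1 member with an unadjusted p under 0.05. Among 19 translation factors and synthetases 12 were higher, Eif2ak4 being the 1 with an unadjusted p under 0.05. Of 30 cytosolic ribosomal proteins 19 were higher (median 0.0144). With run means set equal 10 of the chaperone genes were higher and 8 lower (median 0.00644). The proteasome, ubiquitin, lysosomal, translation and ribosomal lists then had 4, 17, 5, 10 and 18 genes higher. Antioxidant and detoxification genes were lower in 8 of 10 cases (median -0.0363), but with run means set equal 6 of the 10 were higher.

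DNA repair and telomere genes guard the integrity of chromosomes. Of 21 genes 13 were lower (median -0.0403), and 17 with run means set equal (median -0.0277). Among all 2025 genes 1044 were lower (median -0.00225), and 1146 with run means set equal (median -0.00665). Fanca, of the Fanconi anaemia complex, differed by -0.12 ± 0.08 (SE), Parp1, a sensor of strand breaks, by -0.08 ± 0.06 (SE), and Rad50, of the MRN complex, by -0.04 ± 0.05 (SE). Atr, the checkpoint kinase, lay the other way at 0.08 ± 0.06 (SE). None of the 21 had an unadjusted p under 0.05, beside 14 higher and 4 lower among all 2025 genes.

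Synaptic genes had negative list medians. All 4 genes of the glutamate and GABA receptor list were lower (median -0.0368), among them the scaffold Dlg1 at -0.15 ± 0.09 (SE). Of 8 ion channel genes 6 were lower (median -0.0494). Synaptic vesicle genes were lower in 7 of 11 cases (median -0.0115). Wnt genes were higher in 7 of 10 cases and Notch genes in 4 of 6. In the innate immune list 8 of 10 were lower, and Ifitm2 was its 1 member with an unadjusted p under 0.05. Cell cycle genes, 25 in all, were higher in 14 cases. With run means set equal the Wnt, Notch, innate immune and cell cycle lists had 4, 3, 4 and 13 genes higher. The counts of the receptor, ion channel and synaptic vesicle lists were then unchanged. Lists with more than 1 gene had medians between -0.0563 and 0.0870.

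**Figure D4:**
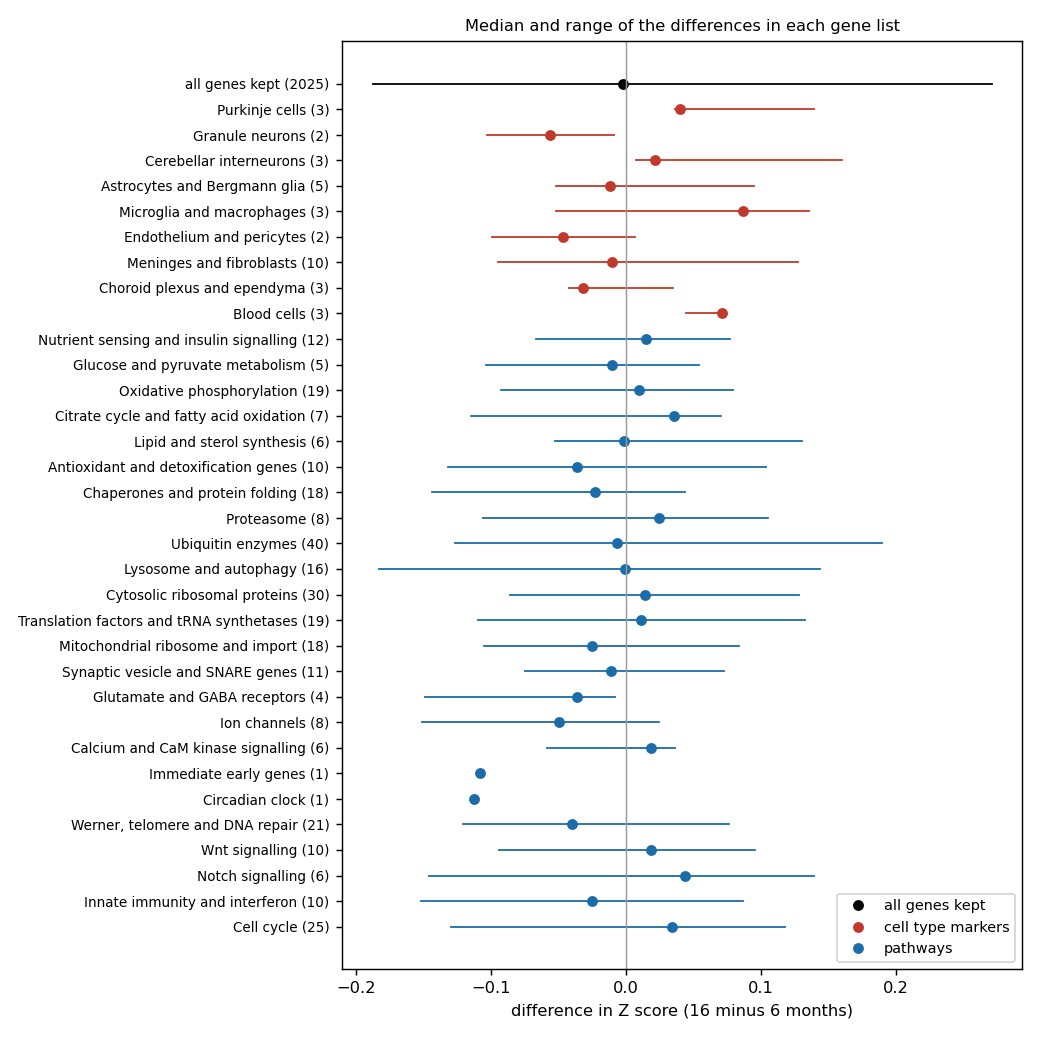
Median (point) and range (line) of the differences in Z score between 16 and 6 months (horizontal axis) for each gene list, with the number of genes tested in brackets, all genes in black, cell type markers in red and pathways in blue. The 3 microglial genes above the mean have the highest median, 0.0870.

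The age difference was also compared between the sexes. limma called 0 probes, and 69 (1.68%) had an unadjusted p under 0.05. Lmbr1, a membrane receptor-like protein, had the smallest p: it differed by -0.32 in males and by 0.16 in females, a gap of 0.47 ± 0.11 (SE; limma, unadjusted p = 0.000488, adjusted p = 1). Zfp688, Lpgat1 and Wdsub1 had the next gaps in that direction, 0.40, 0.36 and 0.49. These 4 probes lay in runs 376 to 382, near one end of the probe numbers. Lap3, Wrnip1, Pikfyve and Bcat1 had the gaps of smallest p in the other direction, from -0.33 to -0.27, and lay in runs 1 to 25. With run means set equal, 4 probes in all had an unadjusted p under 0.05.

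Ad libitum mice of the same ages shared no array with the restricted mice. In them limma called 0 probes, and 9 (0.219%) had an unadjusted p under 0.05. For the difference between the diets limma called 0, and 20 (0.486%) had an unadjusted p under 0.05. Celf3 had the smallest of these p-values. It differed by -0.07 ± 0.07 (SE) in ad libitum mice, a gap of 0.28 ± 0.11 (SE; limma, unadjusted p = 0.0137, adjusted p = 1). Asz1, Noa1 and Efna5, an ephrin ligand, had gaps of 0.20, 0.22 and 0.20. In the other direction the iron exporter Slc40a1 had a gap of -0.23, and Dld, Gstm6 and Pdgfrb of -0.18, -0.19 and -0.15. For Ifitm2 the gap was -0.17 ± 0.10 (SE; limma, unadjusted p = 0.108).

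Restricted mice of 24 months were set beside the 16-month mice without a test, since the 16-month arrays are shared. Their mean for Celf3 was 0.085, between 0.042 at 6 months and 0.254 at 16 months. For Ifitm2 it was 1.64, beside 1.62 at 6 months and 1.47 at 16 months, and for Zfp952 0.201, beside 0.234 and 0.101. Dync1h1 stood at 0.134, just under its mean of 0.142 at 6 months. Of the 13 probes, 10 had a 24-month mean nearer to that of 6 months, and Lap3, Rint1 and Esyt2 one nearer to that of 16 months. The probes had been chosen for a large difference between 6 and 16 months, so nothing is read from this count.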

How the data were processed

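Cerebellar RNA of single mice was labelled with 33P and hybridised to cDNA membranes. The authors deposited 1 Z score per probe and array: signals were transformed to Z scores by the authors, and in the deposited table each array has a mean of 0 and a standard deviation of 1 over 8448 probes. Spots were quantified with ArrayPro. The sources used here do not say whether intensities were logged first. No counts exist, so depth does not apply, and the number of arrays limits the precision.

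Groups were taken from the labels. Differences between 16 and 6 months were fitted with limma 3.58.1 in R 4.3.3, with 1 mean per sex and age and the sexes weighted equally, on the 17 arrays (37 with the ad libitum mice). Only probes with a mean Z above 0 were fitted. A call needed p under 0.05 after Benjamini-Hochberg adjustment, and the study's criteria were applied beside that. The steps were tested on simulated data. The mice differ, but nothing in the labels says whether RNA was prepared separately in time, so p-values measure the spread between these arrays.

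Genes were named by rule: up to 10 probes per direction of smallest p at the study's criteria, genes the study measured or discussed, the 3 brightest members of each marker list, and up to 4 probes per direction for both interactions. Gene lists are described by counts and medians, with probes of 1 gene averaged, and 3 genes drawn in by a name pattern were dropped for what they encode. The members and lists were chosen with earlier results of these data known. Of 4875 single symbols, 4861 had a gene ID in the RefSeq table. Array sets were read from the array numbers: a new set starts where a sex, age and diet comes up again. Alternatives covered the shared spread, arrays left out, normalization, probe number position, array set, weights, filters, moderation, single mice and each sex.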

Additional observations from a re-analysis of the deposited data

Results flagged for a closer look

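In 212 groups of 4 or 5 values, 14 had 1 mouse far from the others of its sex and age, 6.60% beside the 5% that chance gives. Of these, 10 were arrays of set 5. The median correlation of an array with the other 16 was 0.951 in female 5 of 6 months, 0.936 in male 5 of 16 months and 0.924 in female 5 of 16 months, each far below its group.

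Among named probes, male 5 of 16 months stood apart for Esyt2 (1.3), Bpgm (1.46), Noa1 (-0.13) and Gstm6 (0.32). Female 5 of 6 months stood apart for Tmem223 (0.92) and Kcnd2 (0.77), and female 5 of 16 months for Col3a1 (1.75). The other distant values were 0.19 for Kit in male 3 of 16 months, 1.18 for Lmbr1 in female 1 of 6 months, 0.86 for Wrnip1 in male 2 of 6 months and 0.31 for Dld in male 4 of 6 months. The cause was not tested.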

How the results depend on the processing

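No probe was called under any alternative, for the age difference or for its difference between the sexes or the diets. The number with an unadjusted p under 0.05 moved widely for all 3, and the cause was not tested. For the age difference it went from 30 to 47 when all arrays shared the spread except 21, 22 and 26 (26, from a restricted mouse of another age, had a low correlation), 49 with quantile normalization, 63 with position correction, 9 with run correction, 288 with the array set as a block, 269 with array weights, 162 without a filter, 68 without moderation and 78 in males alone. It was 98 without array set 5, 843 in sets 1, 3 and 4 with the set as a block, and 987 with run correction added. Without single mice it ran from 17 to 60, with the highest value without male 5 of 16 months. Among the females of 6 months it was 17, 18, 53 and 57 without mice 1, 2, 4 and 5.

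The number at the study's criteria went from 24 to 1 with arrays 21 and 22 kept, 9 with run correction, 77 in males and 38 in females alone, 4 at a Z-ratio of 2, 50 without set 5, and 208 and 151 in the 3 complete sets without and with run correction. Without single mice it ran from 14, without female 1 of 6 months, to 51, without male 5 of 16 months. It was 40 without female 4 of 6 months.

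For the sexes, the 69 probes became 42 with all arrays but 21 and 22, 33 with these kept, 4 with run correction, 296 with the set as a block, 483 with weights, 127 without a filter, 328 without set 5, and 628 and 724 in the complete sets. Without single mice they ran from 29 to 176. For the diets, the 20 became 31 with quantile normalization, 52 with position correction, 7 with run correction, 146 with the block, 799 with weights, 109 without a filter, 187 in males, 12 in females, 64 without set 5, and 324 and 383 in the complete sets. Without single mice they ran from 14 to 57.

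Probes at the study's criteria that changed sign in a fit were Dync1h1, to -0.433, and Wdr35, to -0.537, with arrays 21 and 22 kept, Lap3, to -0.00856 with run correction and to -0.0135 in females alone, and Eif2ak4, to -0.00189 in the complete sets with run correction. The gap between the diets for Pdgfrb became 0.0496 there. In the other fits these probes and the gaps named for the sexes and diets kept their sign. Within single array sets, read without a test, 17 values of the probes at the study's criteria moved by the spread between mice or more. Asz1 went to -0.115 and Eif2ak4 to -0.05 in set 4, and Ddx54 to -0.045 in set 3. Over all alternatives, 43 values of the study's genes and cell type markers moved that far and 983 did not. In set 4 Dner went to -0.47 and Fcer1g to -0.445. The labels give no replicate numbers that mice of the 2 ages share, so no mice were paired by number, and the array set was the block. The 3 fits on fewer sets, and the fits of low markers with run correction and without set 5, were chosen after the data were seen. Signal over background and gene lengths were not analysed here.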

Other observations

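Spread between mice differed among the groups, and array set 5 moved with it. The median standard deviation of a probe was 0.125 in males and 0.137 in females of 6 months, and 0.180 and 0.144 at 16 months. Without set 5 these values were 0.125, 0.111, 0.101 and 0.0954, so the larger spread at 16 months was present only with those arrays.

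Some probes gave small p-values in the 3 complete array sets with the set as a block, none of them called. Ncdn, the neuronal protein neurochondrin, differed by 0.28 there (limma, unadjusted p = 5.76e-05, adjusted p = 0.0951) and by -0.07 over all 17 mice. Tpd52l2 differed by -0.24 there and by -0.12 over all 17. These probes were chosen after their values were seen. With run means set equal, Eif5a, a translation factor that carries hypusine, differed by 0.15 and Ythdf3, a reader of methylated RNA, by 0.15, each with an adjusted p of 1 in limma.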
